A study of Mus musculus with 6 samples.

Results

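The 7 genes described here, Ccr7, Fscn1, Zfp366, Il4i1, Cd83, Apol7c and Tmem123, are genes that dendritic cells switch on or raise when they mature and leave a tissue. They were taken by symbol from a deposited table of 34652 genes, and all 7 were found in it. The measurements are bulk RNA levels in FPKM, fragments scaled by the length of the gene and the total of the library. They cover 6 libraries of sorted cells, taken from the cerebrospinal fluid (CSF) in a mouse model of leptomeningeal metastasis. The genes were chosen because of their difference between the sorted populations in these same libraries, so that difference is given below as a description, without a test.

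Both groups came from Cx3cr1CreER:mTmG mice that had received tamoxifen and an inoculation of LLC-LeptoM, a line of Lewis lung carcinoma cells that grows in the leptomeninges. Cells were collected 12 days after the inoculation. In these mice Cre recombinase is driven by the Cx3cr1 locus, and a membrane reporter turns green (GFP) in cells where Cre has acted and in their progeny. Cx3cr1 is known to be active in tissue macrophages and also in monocytes and some dendritic cells. The group called dLAM, labelled resident macrophages, was sorted by the gate CD45+CD11b+F4/80+Ly6C-GFP+. The Mono-macrophage group was GFP-: 1 fraction with CD45, CD11b and F4/80 was mixed with another that had CD45, CD11b, low F4/80 and Ly6C. There were 3 libraries of each, no mice without a tumour were analysed here, and age and sex are not given. The labels do not say whether the libraries of a group came from separate mice, so every p-value below rests on a spread between libraries that may be technical.

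Dendritic cells sample antigen in tissues and, after a maturing stimulus or spontaneously, lower their uptake of antigen, raise costimulatory molecules and move along lymphatic vessels to lymph nodes. CCR7, a chemokine receptor for CCL19 and CCL21, guides that movement, and fascin (Fscn1) bundles actin filaments in the dendrites of the mature cell. Cells with this programme have been described in tumours, where they carry regulatory as well as stimulatory molecules.

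Depth, estimated from the smallest steps in the values, lay between 1.23e+07 and 1.7e+07 fragments per library, and between 10281 and 11470 genes reached 1 FPKM. The libraries of a group were not alike in sex-linked RNA: Ddx3y, a Y-linked gene, stood at 10.1 FPKM in dLAM library 3 and 10.6 in Mono-macrophage library 2, and between 1.56 and 2.68 in the other 4. Of the markers that check the labels, the macrophage receptor Mrc1 was at 120, 112 and 104 FPKM in dLAM libraries 1, 2 and 3 and at 7.22, 4.74 and 10.4 in the Mono-macrophage libraries. The monocyte marker Ly6c2 was at 15, 14.4 and 11.5 FPKM in dLAM and at 69.2, 83.8 and 124 in Mono-macrophage libraries, with the reservation that the near-identical Ly6c1 may share its reads. Each set of libraries therefore carries the marker of its label shown here, and both sets carry markers of other cell types besides, given below.

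Ccr7, Fscn1 and Zfp366 separated the populations most. Ccr7 (ENSMUSG00000037944, chr11:99144196-99155077, minus strand, build mm10 with GENCODE M21) was at 19.9, 30.8 and 28.0 FPKM in dLAM libraries 1, 2 and 3. In Mono-macrophage libraries 1, 2 and 3 it was at 0.148, 0.683 and 0.238 FPKM, which corresponds to about 4, 19 and 8 fragments at the estimated depth. Every dLAM library thus stood far above every Mono-macrophage library, and Mono-macrophage library 2 held most of the Ccr7 fragments of its group. The means were 26.2 ± 5.64 and 0.356 ± 0.287 FPKM (SD, n = 3 each), a ratio of 73.7, or of 136 when Mono-macrophage library 2 is left out. The difference was 4.33 ± 0.21 (SE) on the log2(FPKM + 1) scale used throughout, where changes at low levels appear too small.

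Fscn1 (ENSMUSG00000029581, chr5:142960343-142973185, plus strand) was at 12.9, 27.7 and 15 FPKM in dLAM libraries 1, 2 and 3. It was at 0.106, 0.0514 and 0.329 FPKM in the Mono-macrophage libraries, or about 4, 2 and 17 fragments. The groups did not overlap, and the dLAM libraries were uneven, with library 2 well above the other two. The ratio of the means, 18.5 ± 8.04 over 0.162 ± 0.147 FPKM (SD, n = 3 each), was 115, and 236 without Mono-macrophage library 3. The log2 difference was 4.0 ± 0.27 (SE). The 2 relatives of fascin on the list, Fscn2 and Fscn3, known from retina and testis, reached at most 0.292 and 0.438 FPKM in any library and were not tested.

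Zfp366 (ENSMUSG00000050919, chr13:99184823-99250656, plus strand) encodes DC-SCRIPT, a zinc finger protein known from dendritic cells. It was at 10.5, 17.2 and 12.4 FPKM in dLAM and at 0.370, 0.0257 and 0.0213 FPKM in Mono-macrophage libraries. About 32 fragments in Mono-macrophage library 1 and 2 in each of the others stand behind the low values, so 1 library set the level of that group. The ratio of the means, 13.4 ± 3.46 over 0.139 ± 0.200 FPKM (SD, n = 3 each), was 96.3 with that library and 570 without it. The log2 difference was 3.65 ± 0.21 (SE).

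Apol7c is a member of the apolipoprotein L family that is known from conventional dendritic cells. It lies on chr15:77524852-77533316, minus strand (ENSMUSG00000044309). It was the lowest of the 7 genes in dLAM, at 2.58, 3.82 and 1.81 FPKM, and was listed at 0 in Mono-macrophage libraries 1 and 2 and at 0.115 FPKM, about 4 fragments, in library 3. The log2 difference was 1.81 ± 0.20 (SE). Of the windows of 100 bases along its exons, 6.19% are shared letter for letter with Apol7a, Apol7e or the gene model Gm8221, so part of its level could be counted to them or from them. Of 12 other Apol genes 2 passed the filter of 1 FPKM in 3 libraries. Apol7e was higher in dLAM, with 4.04, 1.68 and 4.34 FPKM against 0.164, 1.15 and 0.132 (log2 difference 1.56 ± 0.34 (SE), limma adjusted p = 0.012). Apol8 was not called, at 0.374, 1.48 and 1.65 against 1.31, 2.05 and 0.677 FPKM (adjusted p = 0.79). Apol7e was lowest in dLAM library 2, where Apol7c was highest.

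Cd83, Tmem123 and Il4i1 were expressed in both populations. CD83 is a surface protein of mature dendritic cells that stabilises MHC class II and CD86 at the surface, and activated B cells and other cells also carry it. Cd83 (ENSMUSG00000015396, chr13:43784775-43803132, plus strand) was at 48.0, 57.9 and 48.3 FPKM in dLAM and at 13.3, 22.2 and 10.1 in Mono-macrophage libraries. No library of one group reached the other, and Mono-macrophage library 2, which was highest for Ccr7, was highest here too. The means were 51.4 ± 5.67 and 15.2 ± 6.24 FPKM (SD, n = 3 each), a ratio of 3.38 and a log2 difference of 1.76 ± 0.25 (SE).

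Tmem123 encodes porimin, a mucin-like membrane protein, and lies on chr9:7764041-7794333, plus strand (ENSMUSG00000050912). Its levels were 45.8, 51.7 and 44.1 FPKM in dLAM and 17.3, 20.4 and 17.1 in Mono-macrophage libraries, the least variable of the 7 within either group. The means of 47.2 ± 3.96 and 18.2 ± 1.84 FPKM (SD, n = 3 each) gave a ratio of 2.59 and a log2 difference of 1.33 ± 0.11 (SE).

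Il4i1 encodes a secreted L-amino acid oxidase that acts mainly on aromatic amino acids. It lies on chr7:44816387-44840809, plus strand (ENSMUSG00000074141). It was at 8.51, 10.1 and 7.87 FPKM in dLAM and at 6.59, 5.58 and 5.21 in Mono-macrophage libraries, the smallest gap of the 7. The means of 8.84 ± 1.17 and 5.79 ± 0.717 FPKM (SD, n = 3 each) differed 1.53-fold, with a log2 difference of 0.53 ± 0.13 (SE). Its level is uncertain: of 4080 exon bases in the annotation, 3423 (83.9%) overlap exons of Tbc1d17 on the opposite strand, and how the counting treated strand is not given in the sources used here. Tbc1d17 itself was at 3.69, 4.53 and 3.17 FPKM in dLAM and at 3.27, 3.05 and 3.04 in Mono-macrophage libraries, a log2 difference of 0.21 that was not called (limma adjusted p = 0.30).

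**Figure D1:**
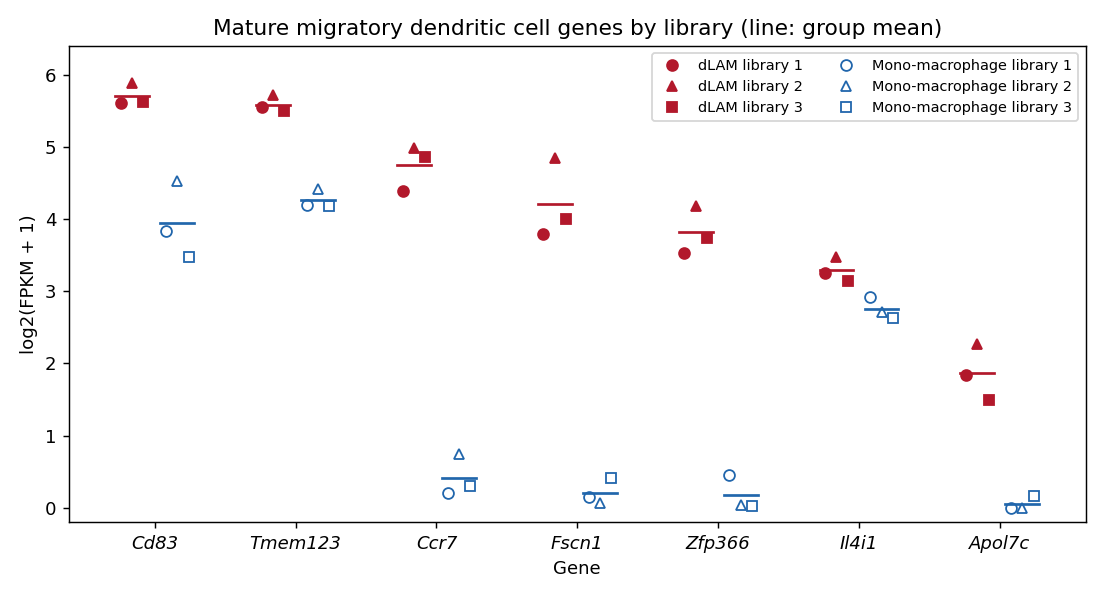
Level of each of the 7 genes, as log2(FPKM + 1), in the 3 dLAM libraries (filled red) and the 3 Mono-macrophage libraries (open blue), with a line at each group mean, ordered by mean FPKM in dLAM. All dLAM points lie above all Mono-macrophage points of the same gene, and the triangle for dLAM library 2 is the highest point of every gene.

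All 7 genes passed the filter. Ccr7, Fscn1, Zfp366 and Apol7c passed only through the dLAM libraries, since they reached 1 FPKM in no Mono-macrophage library, so for these 4 a difference followed from the filter. For all 7 the dLAM libraries lay above all Mono-macrophage libraries, as did those of 29.3% of the 11317 genes tested. These counts come from the contrast that chose the genes, and nothing is read from them. In dLAM the order of levels was Cd83, Tmem123, Ccr7, Fscn1, Zfp366, Il4i1 and Apol7c. The ranges of Cd83 and Tmem123 overlapped, as did those of Ccr7 with Fscn1 and of Fscn1 with Zfp366, although each was above the next in all 3 libraries. In Mono-macrophage libraries the order was Tmem123, Cd83, Il4i1, Ccr7, Fscn1, Zfp366 and Apol7c, with overlap between Tmem123 and Cd83 and between each pair of neighbours from Ccr7 to Apol7c. Il4i1 was therefore next to last in dLAM and above Ccr7 and Fscn1 in the other population.

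The genes were chosen on the contrast between populations and not on how they vary among the dLAM libraries. All 7 were highest in dLAM library 2. Relative to the mean of dLAM libraries 1 and 3, library 2 stood at 1.99 for Fscn1, 1.74 for Apol7c, 1.5 for Zfp366, 1.28 for Ccr7, 1.24 for Il4i1, 1.20 for Cd83 and 1.15 for Tmem123. The size of the excess was thus uneven, large for Fscn1 and Apol7c and small for the abundant Cd83 and Tmem123. Of all genes tested 30.9% were highest in that library, and of the genes called higher in dLAM 40.8%. The lowest level was in library 1 for 4 of the genes and in library 3 for the others. Among the Mono-macrophage libraries there was no such common order: the highest level fell in library 1 for 2 genes, in library 2 for 3 and in library 3 for 2.

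The count of 7 in dLAM library 2 was noticed after the values were seen, concerns 1 library, and has no test. It was 7 also after median-of-ratios scaling, on a TPM scale and after quantile normalization, where 42.3%, 46.4% and 43.6% of the genes called higher in dLAM were highest in library 2. That library had the lowest estimated depth, 1.23e+07 fragments against 1.48e+07 and 1.24e+07 in libraries 1 and 3. The part of depth in the pattern was not tested.

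The counts for genes that accompany dendritic cell maturation and for markers of other cells differed in the same library. All 12 tested genes for cytoskeleton, vesicles and migration were highest there, as were 7 of 8 for enzymes and inhibitors, 5 of 6 chemokines and cytokines, 8 of 13 NF-kB and survival genes and 5 of 15 costimulatory and T cell regulating genes. Of markers shared by conventional dendritic cells 7 of 8 were highest in library 2, of those for cDC1 (the cross-presenting subset) 7 of 11, and of those for cDC2 (the subset that mainly primes CD4 T cells) 4 of 9. Of plasmacytoid dendritic cell markers 2 of 6 were highest there, of mast cell and basophil markers 1 of 5 and of neutrophil markers 2 of 8. In the same library 0 of 10 macrophage markers, 0 of 8 monocyte markers, 1 of 12 T cell markers, 0 of 4 NK cell markers and 0 of 2 B cell markers were highest, while 3 of 4 markers of regulatory T cells were. Beside these stand 30.9% of all genes tested and 40.8% of the genes called higher in dLAM. The counts for cDC2, plasmacytoid and costimulatory genes were close to these shares. These are counts over genes of the same library, which are not independent.

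Zbtb46, a transcription factor that marks conventional dendritic cells, can serve as a yardstick within dLAM, chosen after its values were seen. It was at 3.30, 6.11 and 4.75 FPKM in dLAM libraries 1, 2 and 3, and at 0.0824, 0.0401 and 0.199 in Mono-macrophage libraries. Ccr7 stood at 6.04, 5.04 and 5.91 times the level of Zbtb46 in dLAM libraries 1, 2 and 3, and the coefficient of variation of that ratio was 9.59%, against 21.5% for Ccr7 alone. For Zfp366 the ratio was 3.20, 2.82 and 2.61, with a variation of 10.3% against 25.8% alone, and for Fscn1 it varied by 17.9% against 43.3%. Divided by Cd3e, a subunit of the T cell receptor complex, Ccr7 varied by 28.4%, and divided by C1qa, a complement gene of macrophages, by 32.7%. The other 4 genes did not tighten in this way: Cd83 varied by 11.0% alone and by 24.1% after division by Zbtb46, Tmem123 by 8.39% and 27.6%, Il4i1 by 13.3% and 27.0%, and Apol7c by 37.0% and 33.8%. Cd3e does not stand for all T cell markers. The T cell marker Cd5, at 8.66, 12.8 and 9.38 FPKM in dLAM libraries 1, 2 and 3, had the same order of libraries as Ccr7. So did the regulatory T cell marker Ikzf2, at 1.60, 2.77 and 2.39 FPKM. Of the T cell markers 1 of 12 was highest in library 2, and of the regulatory T cell markers 3 of 4. Ratios to Cd5 and Ikzf2 were not computed. With 3 libraries all of these values are descriptions only.

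**Figure D2:**
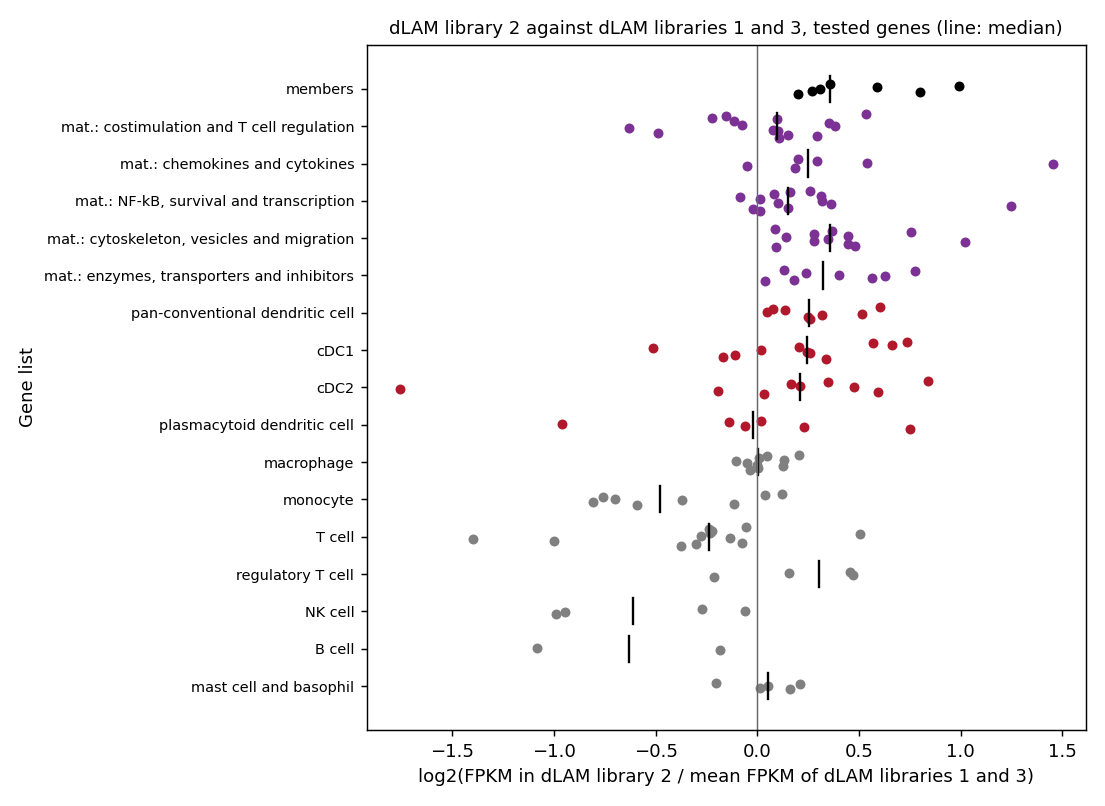
Each point is a tested gene, placed by the log2 ratio of its FPKM in dLAM library 2 to the mean of dLAM libraries 1 and 3, with 1 row per gene list and a black line at the row's median. The 7 members and all 12 cytoskeleton, vesicle and migration genes lie to the right of 0, macrophage markers lie close to 0, and the medians of the monocyte, T cell, NK cell and B cell rows lie to its left.

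The other genes of dendritic cell maturation were compared between the populations from 5 lists with 63 genes, all in the table, of which 54 were tested. In dLAM 39 of the 54 were higher and 1 was lower, and 14 were not called, with a median log2 difference of 1.27. Of all 11317 genes 19.9% were called higher and 10.6% lower (limma, adjusted p under 0.05), with a median of 0.06. Of the 54 genes, 13 reached 1 FPKM in no Mono-macrophage library and so passed the filter only through dLAM. Of the genes named below these include Ccl22, Il12b, Cacnb3, Adcy6, Tbc1d4, Il2ra, Pdcd1lg2, Bcl2l14, Aldh1a2 and Serpinb9. Their direction followed from the filter, so their p-values are no support for it. Among the 34 of the 54 genes at 1 FPKM or more in all 3 Mono-macrophage libraries 20 were higher and 1 lower, beside 14.8% and 12.4% of the 9730 genes of that kind. The lists were drawn up with earlier results of these data known and are no independent evidence. The balance of calls over all genes depends on scaling: as deposited 2249 genes were higher and 1204 lower, after median-of-ratios scaling 1891 and 1526, and after quantile normalization 1799 and 1702. Quantile normalization moved the median of all genes by -0.11. None of the 7 members changed direction under these scalings, and the smallest difference, that of Il4i1, was 0.46 under median-of-ratios scaling and 0.45 under quantile normalization.

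Chemokines and cytokines of mature dendritic cells were among the widest differences: 5 of 6 tested genes were higher in dLAM, with a median of 2.85. Ccl17, a ligand of CCR4 that attracts T cells, was at 117, 123 and 82.9 FPKM in dLAM and at 2.56, 0 and 1.26 in Mono-macrophage libraries (log2 difference 5.74 ± 0.42 (SE), adjusted p = 0.00011). Ccl22, the other ligand of CCR4, was at 27.8, 41.5 and 29.2 FPKM against 0.175, 0.256 and 0.258 (4.76 ± 0.16, adjusted p = 7.4e-06). Il12b, the shared subunit of interleukins 12 and 23, was at 2.33, 7.66 and 3.27 FPKM in dLAM, again highest in library 2, and at most 0.026 in the other group (2.29 ± 0.32, adjusted p = 0.0016). Ccl5, which T and NK cells also make, was higher by 3.41 ± 0.24 (adjusted p = 8.4e-05). Il15 was not called, at 7.33 ± 0.439 against 8.64 ± 0.530 FPKM (adjusted p = 0.16). The genes of the CCR7 ligands, Ccl19, Ccl21a, Ccl21b and Ccl21c, were listed at 0 in all 6 libraries, the 3 Ccl21 genes being near-identical copies whose counting is uncertain, and the scavenger receptor Ackr4 was at 0.0111 FPKM in dLAM library 2 and at 0 elsewhere.

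Genes of the cytoskeleton, vesicles and migration gave 11 of 12 higher, with a median of 1.32. The leading gene was Cacnb3, a calcium channel subunit, at 9.42, 21 and 15.5 FPKM in dLAM and 0.0702, 0.0456 and 0.245 in Mono-macrophage libraries (3.80 ± 0.26 (SE), adjusted p = 7.8e-05). Adcy6, an adenylyl cyclase, was at 2.33, 5.89 and 3.48 FPKM against 0, 0 and 0.0195 (2.22 ± 0.25, adjusted p = 0.00060). Both shared with Fscn1 a wide spread among dLAM libraries with the lowest level in library 1. Tbc1d4, a Rab GTPase-activating protein, and Spint2, a protease inhibitor, were higher by 2.20 and 2.16 (adjusted p = 0.00021 and 0.00023). Arl5c was not called (0.13, adjusted p = 0.66). Lamp3, the lysosomal protein by which mature dendritic cells are named in human tumours, was at most 0.0964 FPKM in any library and was not tested.

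Costimulatory and T cell regulating genes were higher in 10 of 15 cases, with a median of 1.10. Il2ra, the interleukin 2 receptor alpha chain, was at 13.8, 13.4 and 11.2 FPKM in dLAM and at 0.308, 0.564 and 0.555 in Mono-macrophage libraries (3.23 ± 0.14 (SE), adjusted p = 1.5e-05). Tnfrsf4, which encodes OX40, was higher by 2.47 ± 0.33 (adjusted p = 0.0012) and Tnfrsf9, which encodes 4-1BB, by 2.37 ± 0.22 (adjusted p = 0.00025). Regulatory and activated T cells are known to carry all 3 of these receptors, and their dLAM levels were highest in library 1, unlike those of the 7 genes. The checkpoint ligand gene Pdcd1lg2 was at 6.82, 7.61 and 7.59 FPKM against 0.311, 0.778 and 0.714 (2.39 ± 0.15, adjusted p = 5.5e-05). The costimulators Cd86 and Cd80 were not called. Cd86 stood at 25.1 ± 3.90 against 18.0 ± 4.93 FPKM (adjusted p = 0.10). Cd80 stood at 14.1 ± 1.07 against 14.4 ± 3.36 FPKM (log2 difference 0.00 ± 0.17). Cd40, Icosl and Tnfsf9 of the same list were called higher in dLAM. Cd40 stood at 5.84 ± 1.39 against 2.18 ± 0.537 FPKM (adjusted p = 0.0042). Icosl stood at 41.3 ± 4.43 against 21.7 ± 2.62 FPKM (adjusted p = 0.0016). Tnfsf9 stood at 13.9 ± 0.465 against 6.63 ± 2.24 FPKM (adjusted p = 0.0066). Cd70 was at 0.722, 1.06 and 1.05 FPKM in dLAM and listed at 0 in all Mono-macrophage libraries, too low to be tested.

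Among NF-kB, survival and transcription genes 8 of 13 were higher, with a median of 0.82. The nuclear receptor gene Nr4a3, known to act in dendritic cell migration, was at 9.71, 14.2 and 15.8 FPKM in dLAM and 2.18, 4.90 and 2.01 in Mono-macrophage libraries (1.87 ± 0.29 (SE), adjusted p = 0.0024). Relb, a subunit of the non-canonical NF-kB pathway, was at 12.3, 14.8 and 12.5 FPKM against 3.59, 3.78 and 2.81 (1.70 ± 0.13, adjusted p = 0.00014). Traf1 and Bcl2l14 were higher by 1.47 and 1.34 (adjusted p = 0.00090 and 0.0097). The inhibitor gene Nfkbia and the survival gene Birc3 were not called (0.32 and 0.08, adjusted p = 0.18 and 0.60).

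Of 8 tested enzymes, transporters and inhibitors 5 were higher and 1 lower. Serpinb6b, a protease inhibitor, was higher by 2.83 ± 0.25 (SE) (adjusted p = 0.00023) and Serpinb9, the inhibitor of granzyme B, by 2.25 ± 0.14 (adjusted p = 5.1e-05). Aldh1a2, which makes retinoic acid, was at 4.69, 4.88 and 4.23 FPKM in dLAM and at 0.129, 0.0314 and 0.259 in Mono-macrophage libraries (2.30 ± 0.13, adjusted p = 3.9e-05). Il21r, the interleukin 21 receptor, was higher by 2.46 ± 0.13 (adjusted p = 3.1e-05). The 1 gene that was lower was Gyg, glycogenin, at 8.39 ± 0.833 against 17.7 ± 1.65 FPKM (-0.99 ± 0.11, adjusted p = 0.00068), which is named because it was the exception. Poglut1 and Nudt17 were not called (0.35 and 0.38, adjusted p = 0.067 and 0.20).

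The list for amino acid breakdown, the class to which Il4i1 belongs, gave 3 of 7 tested genes higher and 0 lower, with a median of 0.17. Its tested genes were enzymes and the receptor gene Ahr. Kmo, an enzyme of the kynurenine pathway, was at 11.6, 13.1 and 10.3 FPKM in dLAM and at 1.70, 0.778 and 0.940 in Mono-macrophage libraries (2.59 ± 0.18 (SE), adjusted p = 9.0e-05). Arg1, arginase, was higher by 2.13 ± 0.34 (adjusted p = 0.0029) and was lowest in dLAM library 2, at 271 FPKM against 525 and 428. Kynu was higher by 0.80 ± 0.18 (adjusted p = 0.014). Ahr, the receptor for products of this pathway, and Haao were not called (adjusted p = 0.30 and 0.070). Ido1, which starts kynurenine synthesis and is often named for mature dendritic cells, was at most 0.390 FPKM, in Mono-macrophage library 2.

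**Figure D3:**
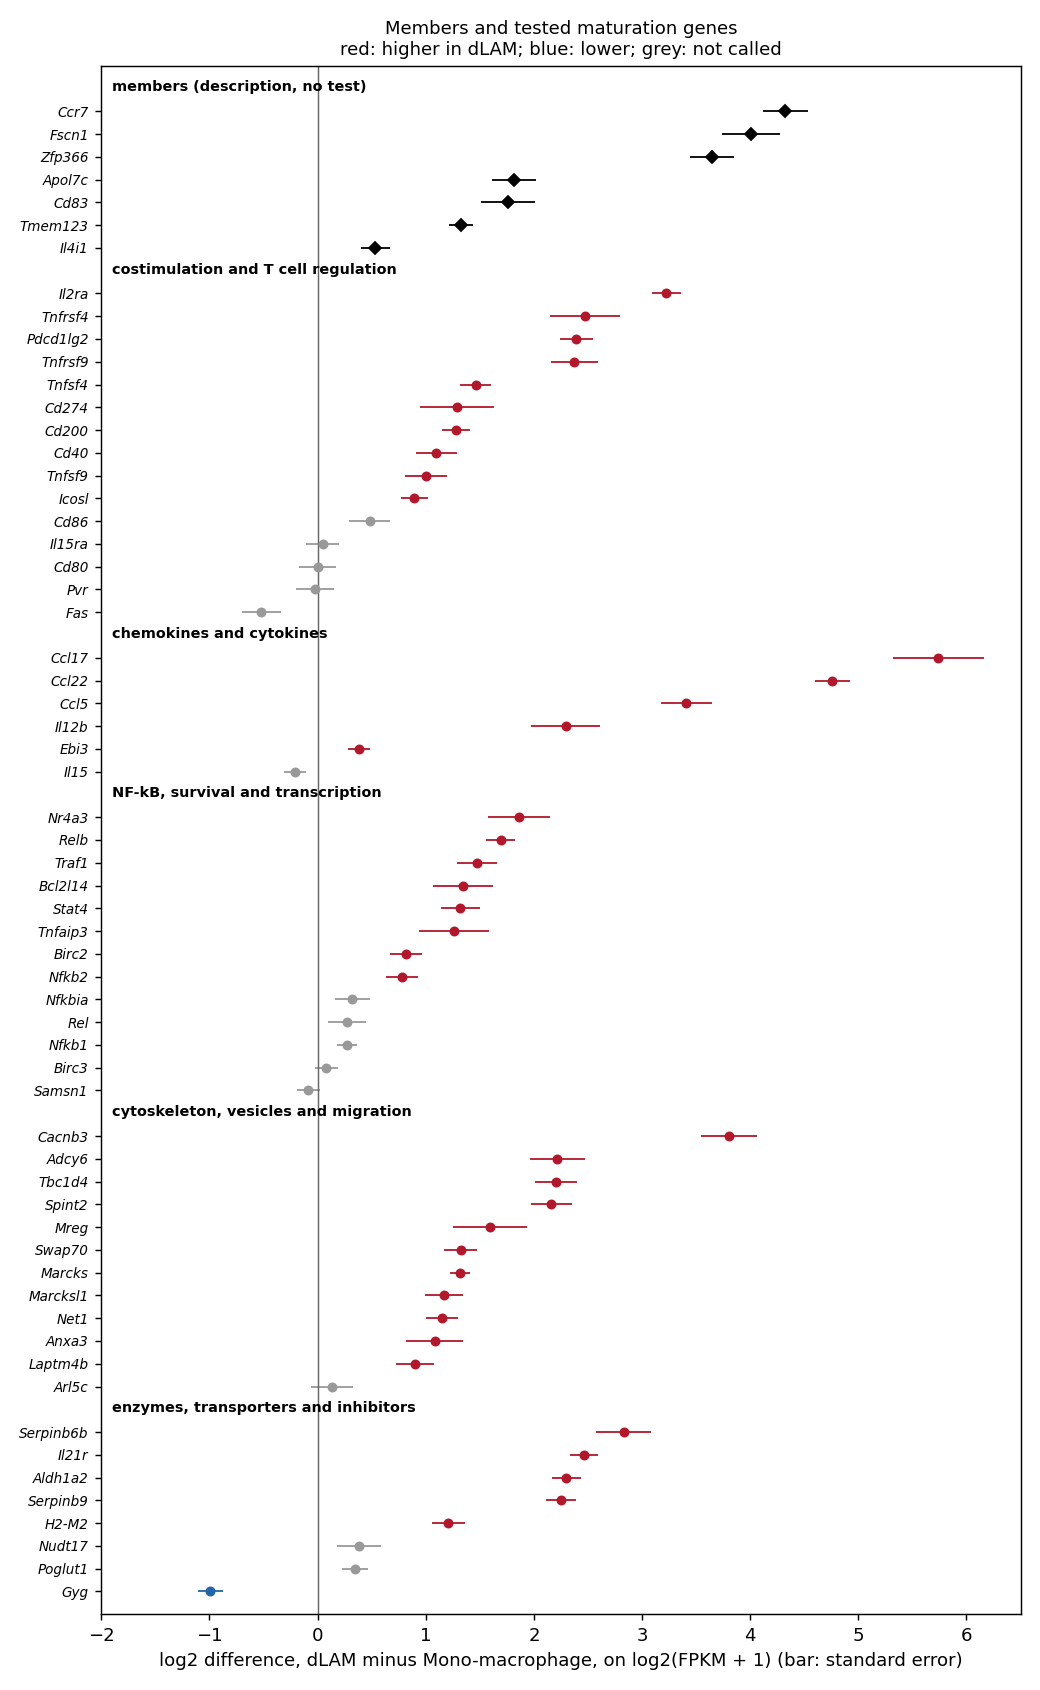
Log2 difference in dLAM minus Mono-macrophage libraries with its standard error (bar), for the 7 members (black diamonds, a description) and for the 54 tested genes of the 5 maturation lists (red higher, blue lower, grey not called). Most genes of each list lie right of 0, Ccl17 and Ccl22 farthest, and Gyg is the single gene called lower.

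Markers of conventional dendritic cells and of other cells moved with the 7 genes. Of 8 shared markers of conventional dendritic cells 6 were higher in dLAM (median 2.83). H2-Eb1, H2-Ab1 and Cd74, the genes of MHC class II and its invariant chain, were higher by 5.45, 4.87 and 4.46, and Itgax, which encodes CD11c, by 3.32 (adjusted p between 3.7e-06 and 1.5e-05). Macrophages can carry these 4 as well. The more specific Zbtb46 was higher by 2.34 ± 0.20 (SE) (adjusted p = 0.00017), whereas Flt3, the receptor on which dendritic cells depend, was at 11.3, 13.9 and 15.2 against 7.84, 12.5 and 9.67 FPKM and was not called (adjusted p = 0.13). Bcl11a was not called either (adjusted p = 0.78). Zbtb46 reached 1 FPKM in no Mono-macrophage library and so passed the filter only through dLAM, which fixed its direction.

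Markers of both conventional subsets were present. For cDC1 10 of 11 were higher (median 1.31), led by Itgae, which encodes CD103, Tlr3, Xcr1 and Batf3 with differences of 3.84, 1.92, 1.71 and 1.62 (adjusted p = 7.1e-06, 9.9e-05, 0.00046 and 0.0029). Of these 11 genes 7, Itgae, Tlr3 and Xcr1 among them, reached 1 FPKM in no Mono-macrophage library and so passed the filter only through dLAM, which fixed their direction. Naaa missed the threshold (0.81, adjusted p = 0.051). For cDC2 6 of 9 were higher (median 1.67), led by Mgl2, Cd209a, Irf4 and Cd7 with 4.46, 3.48, 1.98 and 1.83 (adjusted p = 4.5e-05, 0.00069, 0.00024 and 0.00053), while Sirpa and Klf4 were not called (adjusted p = 0.46 and 0.18). Of these 9 genes 1, Tnip3, passed the filter only through dLAM, which fixed its direction. Mgl2 and Cd7 reached 1 FPKM in only 1 Mono-macrophage library each, so they too needed dLAM libraries to pass. Xcr1, at 1.68, 3.23 and 2.19 FPKM in dLAM, and Cd209a, at 50.6, 64.2 and 21.2, were both highest in library 2.

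RNA of other cell types was also measured. The summed level of 12 T cell markers lay between 169 and 208 FPKM in dLAM and between 5.91 and 26.8 in Mono-macrophage libraries, and all 12 were higher in dLAM. The gate requires CD11b and F4/80, which most T cells lack. CCR7 is also carried by naive and central memory T cells and by B cells. The 8 B cell markers summed to between 9.95 and 15.3 FPKM in dLAM and between 1.03 and 2.31 in the other group, where Blk and Cr2 were at 0, and the 8 mast cell and basophil markers to between 41.7 and 89.9 against 0.708 to 1.96. For 8 plasmacytoid dendritic cell markers the sums were 42.9 to 53.1 against 9.79 to 33.3 FPKM, and 5 of the 6 tested were called higher. Most of these sums was Bst2, at 33.4, 35.7 and 27.6 against 14.6, 7.82 and 30.7 FPKM, which was not called (adjusted p = 0.10). For 10 macrophage markers the sums were 1222 to 1558 against 439 to 545 FPKM. The 8 monocyte markers were all lower in dLAM, and the 8 neutrophil markers, 3 of them called lower, summed to between 1292 and 1666 FPKM there and between 1904 and 11735 in Mono-macrophage libraries. All 4 tested regulatory T cell markers, all 4 of NK cells, all 3 of carcinoma and epithelial cells and 1 of 2 of fibroblasts and endothelium were higher in dLAM. Of these, 3 regulatory T cell, 2 NK cell, 2 carcinoma and 1 fibroblast or endothelial genes passed the filter only through dLAM, as did 3 of the 12 T cell, 4 of the 5 tested mast cell and 4 of the 6 tested plasmacytoid genes, so their direction followed from the filter. The 3 carcinoma and epithelial genes called were Epcam, Krt18 and Cdh1. Krt8, Krt19 and Cldn4 of that list reached at most 0.491, 0.173 and 0.0372 FPKM in any library and were not tested. The 1 gene called for fibroblasts and endothelium was Lyve1, and Pecam1 was not called. Col1a1, Col1a2, Dcn, Pdgfra, Cdh5 and Cldn5 of that list were not tested. They reached at most 1.78, 0.609, 1.65, 0.102, 1.21 and 0.0574 FPKM in any library, so the call for these cell types rests on Lyve1 alone. The part of T cells, B cells and the other types in the levels of the 7 genes was not tested. In bulk RNA fewer cells of a type and less RNA per cell cannot be told apart, nor can one tell whether the 7 genes and macrophage genes were expressed in the same cells.

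Within dLAM the summed T cell markers in library 2 stood at 0.861 times the mean of libraries 1 and 3, the B cell markers at 0.658, the regulatory T cell markers at 1.01 and the macrophage markers at 1.01, where all 7 genes were highest. Of the regulatory T cell markers, Foxp3, Ikzf2 and Ctla4 stood at 1.37, 1.39 and 1.11 in library 2. Il2rb, the largest part of that sum, stood at 0.864. In Mono-macrophage library 2, where Ccr7, Cd83 and Tmem123 were highest in their group, the T cell sum was the highest too, at 26.8 FPKM against 5.91 and 22.7 in libraries 1 and 3. The sum of the 7 genes ran from 148 to 199 FPKM in dLAM and from 33.1 to 48.9 in Mono-macrophage libraries, most of it Cd83 and Tmem123.

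**Figure D4:**
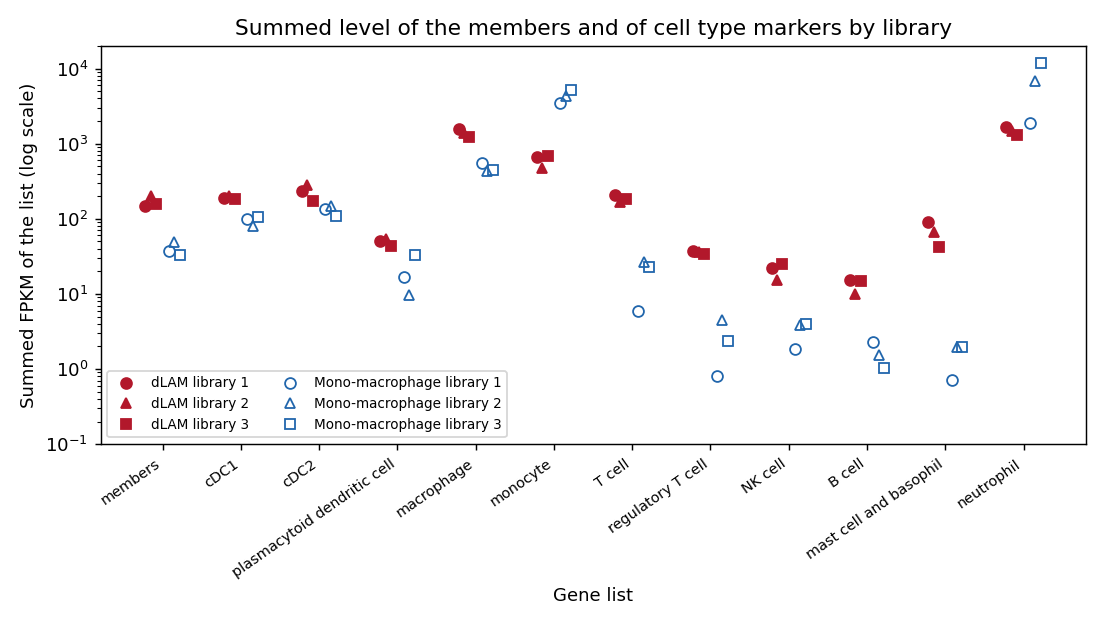
Summed FPKM, on a log axis, of the 7 members and of marker lists for cell types, in the 3 dLAM libraries (filled red) and the 3 Mono-macrophage libraries (open blue). Sums for T cells, B cells and mast cells lie apart as those of the members do, with dLAM above Mono-macrophage, and the monocyte sums lie the other way.

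Genes with a profile most like that of Ccr7 over the 6 libraries were found from the root mean square distance between profiles of log2(FPKM + 1), each centred on its own mean. The nearest of the other genes were Ccl22 at 0.294, Slamf9 at 0.313, Ccl12 at 0.319, Itgae at 0.336 and Cd74 at 0.341, where the median gene lay at 2.15. Fscn1 at 0.356 and Zfp366 at 0.451 were close to Ccr7, and Il4i1 at 1.92 was not. Nearest to the mean profile of the 7 genes were Il21r at 0.0551, Folr2 at 0.0811, Blnk at 0.0864, Nuak1 at 0.0978 and H2-Ob at 0.124. Folr2, a folate receptor known from resident macrophages, was at 4.13, 5.35 and 3.88 FPKM in dLAM and listed at 0 in all Mono-macrophage libraries. Blnk, an adaptor of B cell receptor signalling that macrophages also express, was at 4.39, 5.66 and 4.41 against 0.152, 0.125 and 0.0564 FPKM. Likeness of this kind is set mostly by the gap between the groups and does not separate genes of dendritic cells from genes of macrophages.

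Of 14 tested genes that flank the 7 loci 4 were higher, 1 was lower and 9 were not called, beside 19.9% higher and 10.6% lower over all genes, so the flanking genes were called about as often as genes at large. Birc2, 23.9 kb from Tmem123 and an inhibitor of apoptosis on the NF-kB list, was higher by 0.82 (adjusted p = 0.0049), and Mmp8, a collagenase of neutrophils on its other side, was lower, at 28.4 against 195.5 FPKM (adjusted p = 0.00034). The others called higher were Apol7e, 1110038F14Rik and Smarce1. Actb and Rnf216 beside Fscn1 and Tnpo1 and Ptcd2 beside Zfp366 were not called.

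RefSeq promoters on GRCm38.p6, from 250 bases before to 50 after the start site, were held for Fscn1, Il4i1, Tmem123 and Apol7c, and entries for Ccr7, Zfp366 and Cd83 were missing. Both strands were searched for 4 motifs of factors known in dendritic cells. The kappa-B motif, bound by NF-kB, was in none of the 4 genes and in 4.51% of 32851 promoters. The PU.1 motif GAGGAAGT was in 3.2% and was found once, in Il4i1, on the minus strand at chr7:44836155-44836162, with its first base at -133 from the RefSeq start site, which lies inside the GENCODE M21 gene and downstream of its annotated start. The interferon response motif, GAAA followed by any 2 bases and GAAA again, was in 3.44% and was found in Apol7c, and the composite motif of PU.1 and IRF, GGAA followed by any 2 bases and GAAA, was in 2.72% and in none of the 4. The Apol7c promoter is printed because it holds 2 interferon response matches that overlap, both on the opposite strand of the gene, with first bases at -55 and -49 from the start site. The run below covers chr15:77533326-77533565 on the minus strand, 240 bases 5′ to 3′, with the matched bases in capitals.
Apol7c: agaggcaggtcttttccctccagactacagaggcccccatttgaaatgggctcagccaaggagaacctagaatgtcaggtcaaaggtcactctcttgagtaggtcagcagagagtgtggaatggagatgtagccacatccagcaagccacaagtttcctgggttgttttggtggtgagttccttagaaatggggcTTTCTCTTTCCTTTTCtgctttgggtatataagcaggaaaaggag
A match of letters describes the window and is neither a bound site nor a cause of the level of the gene.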

How the data were processed

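The authors deposited 1 table of FPKM with 34652 genes and 1 column for each of 6 libraries. The submitters' processing notes list FastQC, HISAT2, featureCounts and mm10, while the sources used here give no versions, settings, strand handling, annotation or fragment totals. The design text speaks of 10 samples, of which 6 were analysed here, and groups came from titles and cell type labels.

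Since FPKM keeps no counts, a count model was not fitted. Genes with at least 1 FPKM in at least 3 libraries (11317) were fitted as log2(FPKM + 1) in limma 3.58.1 (R 4.3.3) with a mean-variance trend and no covariate, p-values were adjusted over all of them (Benjamini-Hochberg), and an adjusted p under 0.05 counted as a call. The fit was tested on simulated data. Symbols of 32672 genes (94.3%) matched GENCODE M21, whose exon lengths gave the depth from the steps between low values. Between 40.8% and 44.6% of values below 20 fragments came out whole within 0.02, so counts were not recovered and depths are estimates.

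The members and gene lists were chosen with earlier results of these data known. In each list up to 4 called genes with the widest difference and up to 2 not called with the highest mean were named, besides markers at or near 0. Exceptions named after their values were seen were Zbtb46, Gyg, Cd40, Icosl, Tnfsf9, Cd5, Tnip3, Ddx3y, Tbc1d17 and the flanking genes. The same holds for the untested fibroblast and endothelial markers. Alternatives covered scaling, pseudocount, filter, Y-linked RNA, a replicate block and leaving out each library. Summaries used pandas 2.3.3 and numpy 2.4.6 under Python 3.11.15, and plots matplotlib 3.10.9.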

Additional observations from a re-analysis of the deposited data

How the results depend on the processing

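No member changed direction among the alternatives run, but the median log2 difference of all genes, 0.06, was -0.0059 after median-of-ratios scaling and -0.05 after quantile normalization. The ranges of the log2 difference over the alternatives were 4.04 to 6.01 for Ccr7, 3.64 to 6.21 for Fscn1, 3.27 to 6.10 for Zfp366, 0.44 to 0.63 for Il4i1, 1.52 to 2.09 for Cd83, 1.42 to 4.40 for Apol7c and 1.24 to 1.45 for Tmem123. The median of the 7, 1.81, became 3.22 on a TPM scale and 4.40 with a pseudocount of 0.1, which weigh low values more, and 2.70 with a filter of 5 FPKM, which Apol7c did not pass. Calls over all genes (3453, of which 2249 higher and 1204 lower) came to 2168 with the filter of 5 FPKM (1247 higher), where fewer genes were tested, and to 2260 in the 4 libraries with low Y-linked RNA (1480 higher, 780 lower), where fewer samples were. Leaving out single libraries gave between 780 genes lower, without dLAM library 2, and 1220, without Mono-macrophage library 1. Replicate numbers are shared by the groups, and whether they pair the libraries cannot be told from these values. The deviations of same-numbered libraries correlated at 0.189, -0.147 and -0.0887. The highest of the 9 pairs, 0.386, was dLAM library 3 with Mono-macrophage library 2, which share high Ddx3y. A replicate block gave 2859 calls (1860 higher, 999 lower).

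With the filter of 5 FPKM the lists lost genes tested, and the genes called higher fell to 7 of the cytoskeleton list, 3 enzymes, 4 cDC1, 2 regulatory T cell, 1 NK cell and 1 carcinoma marker, and to 0 for the Apol family, B cells and plasmacytoid dendritic cells. With no filter 4 Apol genes, 7 B cell and 5 fibroblast and endothelial markers were called higher, and in low-Y libraries 2 NK cell markers. Genes called lower were few: 1 of amino acid catabolism (Haao) and 1 of costimulation (Fas), each 0 as reported, under median-of-ratios scaling and quantile normalization, 1 of costimulation with a term for Y-linked RNA, and between 0 and 1 of each when single libraries were left out (1 without Mono-macrophage library 3). Neutrophil markers called lower, 3 as reported, were 5 under median-of-ratios scaling, 1 under quantile normalization and with the replicate block, 0 with no filter and in low-Y libraries, and between 0 and 5 when single libraries were left out. The causes were not tested. Counts behind the low Mono-macrophage values, between 0 and 32 fragments for Ccr7, Fscn1, Zfp366 and Apol7c, limit the ratios of these genes.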
